A study of Mus musculus with 48 samples.

Results

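The proteasome genes described here are the genes of the count table whose symbols carry the stems Psma to Psmg followed by a number and that reached at least 10 counts in at least 7 libraries. Of 48 symbols with such a name, 47 met the rule, among 48795 genes in the table, and all 47 were among the 19975 genes with enough reads to test. The exception was Psmb11, the beta subunit of the thymus proteasome, which had at most 4 counts in any library. Psma8, the alpha subunit known from the testis, met the minimum in 26 libraries and the other 46 genes met it in all 48. By the known roles of their products the 47 genes fall into 8 of the alpha ring, 7 of the constitutive beta ring, 3 of the immunoproteasome, 9 of the base, 8 of the lid, 5 activators or inhibitors and 7 assembly factors.

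The proteasome is the protease that degrades proteins tagged with ubiquitin. Its core is a stack of rings in which alpha subunits form the gate and beta subunits hold the cutting sites. The regulatory cap has a base of ATPases that unfold the substrate and a lid that removes the ubiquitin chain. After interferon signalling, cells can replace the catalytic beta subunits by those of the immunoproteasome and can cap the core with the PA28 activator, which alters the peptides made for antigen presentation. Mutant huntingtin is itself a substrate of protein quality control, and the state of the proteasome in Huntington's disease models has been studied for that reason.

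RNA was taken from the corpus striatum of C57BL/6 mice aged 6 months, in 48 libraries that the labels divide into 6 genotypes. Q140 mice carry, heterozygously at Htt, a knock-in with an expanded CAG repeat, a model of Huntington's disease. The product of Msh3 serves in mismatch repair, where it recognises DNA loops of the kind that form at such repeats. Without the repeat there were 7 wild type (3 female, 4 male), 9 Msh3+/- (5 female, 4 male) and 8 Msh3-/- libraries. With the repeat there were 8 Q140, 8 Q140 Msh3+/- and 8 Q140 Msh3-/- libraries, and these groups and Msh3-/- held 4 females and 4 males each. Each library was taken as 1 mouse, which the labels do not state, so p-values measure the spread between libraries, which may in part be technical. Totals lay between 33.7 and 52.8 M counts. Reads of Msh3 went against a simple loss of transcript, with a mean CPM (counts relative to the scaled library size) of 30.98 in wild type, 77.4 CPM in Msh3+/- and 119.7 CPM in Msh3-/-. The directions given for Msh3 genotypes therefore rest on the labels. Markers of medium spiny neurons, the main cell of the striatum, were abundant in every library, with a sum between 7738 and 17070 CPM over 10 genes. In 5 libraries a marker list stood apart. Wild type F3 was the highest of all 48 libraries in microglial genes, at 615.4 CPM in sum. In antigen presentation genes it was the highest wild type library, at 731.4 CPM in sum. Msh3-/- F1 (774 CPM), Msh3+/- F1 (770.2 CPM) and Msh3-/- F2 (760.9 CPM) were higher in that sum. Choroid plexus genes summed to 263.3 CPM in wild type M1, 625.3 CPM in wild type M2 and 4353 CPM in Q140 Msh3+/- F1, with the next library at 86.4 CPM, and cortical genes to 276.0 CPM in Msh3+/- F5.

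To show the DNA in front of the genes the results turn on, stretches of RefSeq promoters (assembly GRCm38.p6) follow for Psme1, Psmb10 and Psmb5. They are the 3 proteasome genes with the smallest p in the comparison of Q140 with wild type. Each is the longest part of the 250 bases before the RefSeq start that lies outside every GENCODE M21 exon of its gene, written 5′ to 3′ on the gene's strand. The Psme1 stretch lies downstream of the first exon of an alternative transcript. Capitals mark matches to the core of the antioxidant response element, TGANNNNGC.
Psme1, chr14:55578249-55578359, plus strand: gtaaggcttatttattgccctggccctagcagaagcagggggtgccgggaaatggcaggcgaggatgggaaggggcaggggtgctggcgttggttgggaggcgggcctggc
Psmb10, chr8:105938445-105938642, minus strand: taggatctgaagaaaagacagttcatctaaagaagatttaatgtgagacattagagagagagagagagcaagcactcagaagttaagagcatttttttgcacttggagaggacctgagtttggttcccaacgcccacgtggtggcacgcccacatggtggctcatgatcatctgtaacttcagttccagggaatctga
Psmb5, chr14:54618023-54618245, minus strand: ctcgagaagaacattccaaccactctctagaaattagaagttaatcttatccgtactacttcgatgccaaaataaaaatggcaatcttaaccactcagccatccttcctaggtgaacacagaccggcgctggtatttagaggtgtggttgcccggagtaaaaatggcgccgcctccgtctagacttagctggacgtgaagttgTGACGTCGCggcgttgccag
In these stretches 1 match was found, in Psmb5. Over the full 250 bases, searched on both strands, RefSeq promoters were found for 39 of the 47 genes. The core TGANNNNGC was found in 15 of the 39 (38.5%) and in 38.7% of all 27025 genes with such a promoter. Its extended form TGACTCAGC, whose letters also match the core, was found in 0 of the 39 and in 0.426% of all genes. The CCAAT box was found in 13 of the 39 (33.3%) against 37.5% of all, and the interferon-type element, a pair of GAAA separated by any 2 bases, in 3 of the 39 (7.69%) against 3.46% of all. The 3 genes with the interferon-type element were Psmb3, Psmd4 and Psmd9. It was not found for Psme1, Psme2, Psmb8, Psmb9 or Psmb10. A match describes letters in a window and is not a measured binding site.

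Levels per length separated the constitutive proteasome from the immunoproteasome by more than any genotype did. On the FPKM scale (fragments relative to gene length and library total), averaged over the 48 libraries, the median gene of the alpha ring was at 18.3, of the constitutive beta ring at 29.6, of the base at 32.8 and of the lid at 18.6. The highest were Psmb1 of the beta ring at 65.8 FPKM, the ATPase Psmc5 of the base at 59.8, Psma2 of the alpha ring at 46.7 and Psmd7 of the lid at 34.5. Psma8 was the lowest of the 47 at 0.145 FPKM. Of the immunoproteasome subunits, Psmb10 was at 4.05, Psmb8 at 0.692 and Psmb9 at 0.229 FPKM. In the PA28 family, Psme3, which forms the nuclear activator, was at 30.3 FPKM, while Psme2, a subunit of the interferon-induced activator, was at 3.26 FPKM. Assembly factors lay between 1.42 (Psmg3) and 8.51 FPKM (Psmg4).

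**Figure D1:**
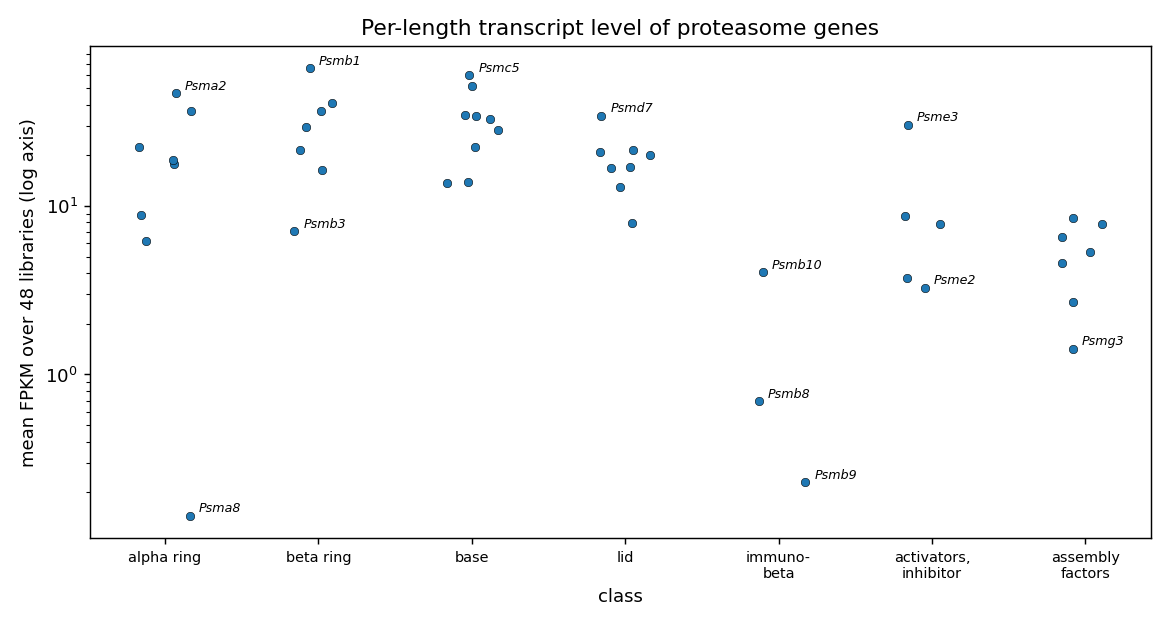
Mean FPKM over 48 libraries of each of the 47 proteasome genes (points, log axis) by class, with the highest or lowest genes named. The immunoproteasome genes Psmb8 and Psmb9 and the alpha subunit Psma8 lie below 1 FPKM, and the constitutive rings, base and lid lie between 6.21 and 65.8 FPKM apart from Psma8.

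Each immunoproteasome subunit replaces a known constitutive partner, so their transcript ratio was taken on the FPKM scale in each library. In wild type, Psmb10 stood at 25.0% ± 1.87 (SD, n = 7) of its partner Psmb7. Psmb8 stood at 2.75% ± 0.587 of Psmb5, and Psmb9 at 0.676% ± 0.261 of Psmb6. On this scale Psmb10 was the highest of the 3 beside its partner, but the ratios depend on the gene lengths used for FPKM. Mean wild type CPM, which is not divided by length, was 6.786 for Psmb10 and 54.6 for Psmb7. It was 2.095 for Psmb8 and 24.23 for Psmb5, and 0.8878 for Psmb9 and 67.73 for Psmb6. In Q140 the Psmb10 ratio was 28.6% ± 3.17 (SD, n = 8), the Psmb8 ratio 2.30% ± 0.420 and the Psmb9 ratio 0.567% ± 0.125. In Q140 Msh3-/- the Psmb10 ratio was 23.3% ± 2.58 (SD, n = 8). Exons of Psmb7 share 405 bases with Nek6 and exons of Psmb9 share 212 bases with Tap1 on the other strand, and whether the counting used strand is not given in the sources used here.

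The proteasome genes varied little between libraries of a group. The residual SD on the log2 scale, after group and sex, had a median of 0.078 over the 47 genes and of 0.138 over all genes tested. These sets were not matched for expression level. Among the 47 genes the SD was lowest in the lid, with a median of 0.0609 and 0.0518 for Psmd8. It was highest for the weakly expressed Psmb8 (0.212), Psmb9 (0.208) and Psma8 (0.205). The SE of the Q140 change accordingly ran from 0.029 for Psmd8 to 0.17 for Psmb9 and 0.32 for Psma8.

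The first comparison asked what the repeat does on an otherwise wild type background. In Q140 striatum, 9 of the 47 proteasome genes rose and 0 fell. The rises were led by Psme1, which encodes the alpha subunit of PA28, by 0.38 on the log2 scale, and by Psmb10, the immunoproteasome subunit that replaces Psmb7, by 0.29. The other 7 rose by between 0.08 and 0.23: Psme2, Psmb5, Psmc4, Psmd9, Psma7, Psmg3 and Psmd8. "Rose", "fell" and "changed" are written only for an adjusted p under 0.05 (edgeR quasi-likelihood test, Benjamini-Hochberg over the 19975 genes). The share called, 19.1% of the 47, stood beside 19.9% of all genes tested, so that proteasome genes were called about as often as any gene. By direction, 19.1% of the 47 rose against 9.64% of all genes. The median change of the 47 was 0.0532 on the log2 scale and that of all genes 0.0145, and 36 of the 47 changes were above 0.

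Psme1 had the clearest difference. Its lowest, median and highest wild type libraries were at 14.97, 17.7 and 20.3 CPM, and the Q140 libraries at 20.43, 22.8 and 26.8 CPM. Every Q140 library lay above every wild type library. The change was 0.38 (SE 0.060, edgeR adjusted p = 5.32e-06). Psme2, whose product pairs with that of Psme1 in the PA28 ring, lies beside it on chromosome 14. Psme1 spans chr14:55578123-55581529 on the plus strand and Psme2 chr14:55587441-55591113 on the minus strand, in GENCODE M21 on GRCm38. Psme2 was at 4.70, 5.61 and 5.92 CPM in wild type and at 5.40, 6.34 and 6.72 CPM in Q140, so the groups overlapped. It rose by 0.18 (SE 0.060, edgeR adjusted p = 0.0245). The call was lost without wild type M1, M3 or M4 or without Q140 F1 or M1 (adjusted p 0.0542 to 0.0863). The table also holds Psme2b, a near copy of Psme2, so the value of Psme2 is uncertain if reads were divided between them. The FPKM of Psme2 stood at 38.4% ± 4.83 (SD, n = 7) of that of Psme1 in wild type and at 33.5% ± 2.07 (SD, n = 8) in Q140. The other activator genes did not pass the test. Psme3 was 0.00 apart on the log2 scale, Psme4, which encodes the activator PA200, −0.05 and Psmf1, the inhibitor PI31, 0.07.

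Among the immunoproteasome genes, 1 of 3 rose. Psmb10 was at 6.09, 6.64 and 8.29 CPM (lowest, median, highest) in wild type and at 6.87, 8.39 and 9.60 CPM in Q140. The ranges overlapped through 1 wild type library, M3, at 8.29 CPM, with the next at 6.74 CPM. The change was 0.29 (SE 0.074, edgeR adjusted p = 0.00377). Psmb8 went from 1.75, 1.95 and 3.17 CPM to 1.57, 1.83 and 2.79 CPM, a difference of −0.11 (SE 0.14, edgeR adjusted p = 0.617). Psmb9 went from 0.548, 0.857 and 1.39 CPM to 0.448, 0.762 and 0.992 CPM, a difference of −0.20 (SE 0.17, edgeR adjusted p = 0.456). For both, the highest wild type library was F3, which also stood high in antigen presentation genes. Without F3 the highest wild type library was at 2.06 CPM for Psmb8 and 1.13 CPM for Psmb9. Psmb8 and Psmb9 lie beside Tap1 in the major histocompatibility region of chromosome 17, while Psmb10 lies on chromosome 8 at chr8:105935735-105938444. Exons of Psmb8 share 498 bases with an antisense gene, Gm20496.

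**Figure D2:**
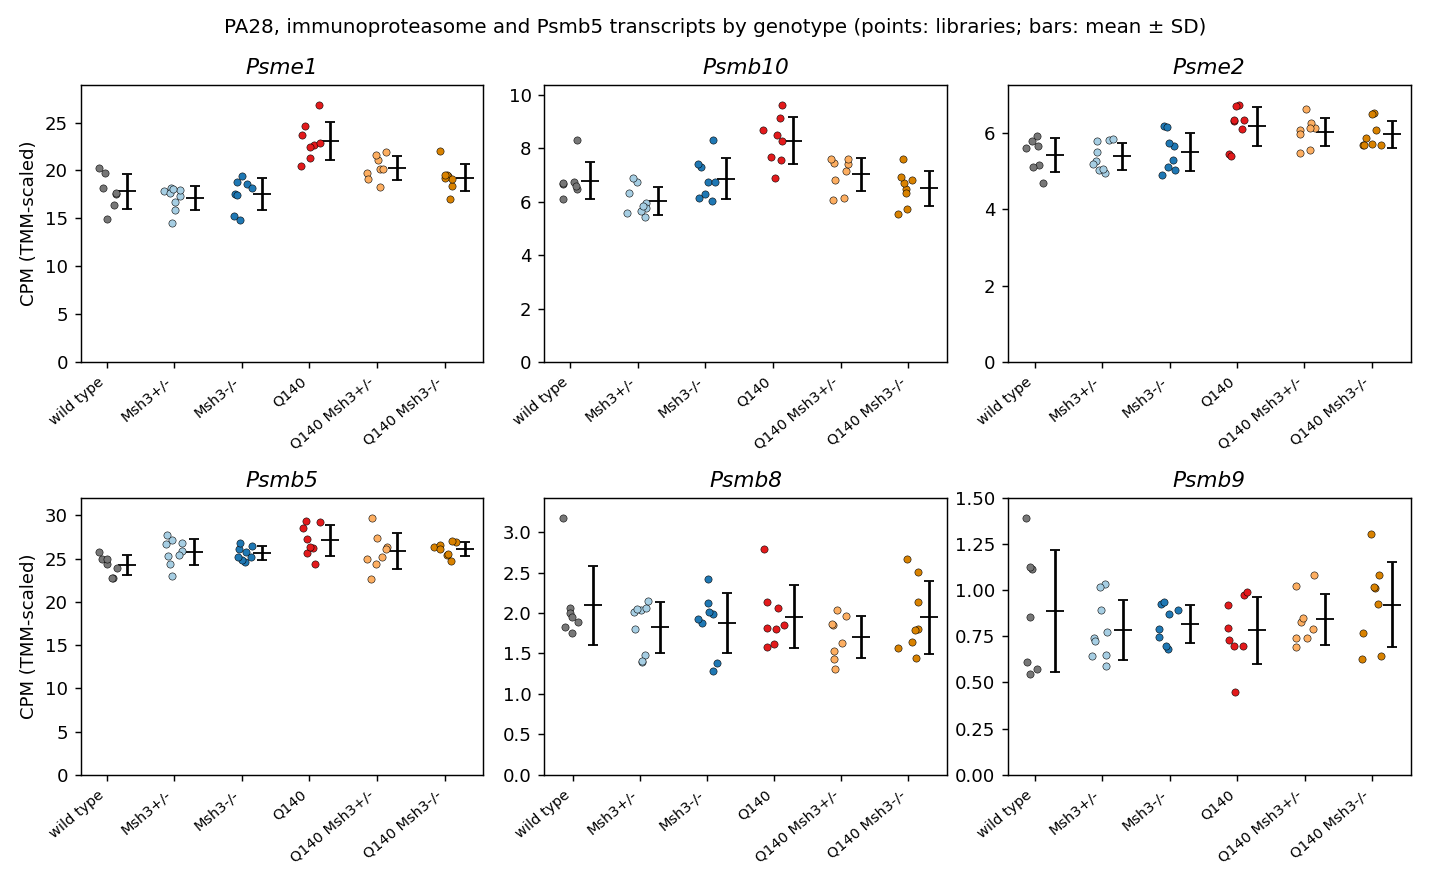
CPM (counts relative to the TMM-scaled library size) of 6 genes in each of 48 libraries (points) by genotype, with mean and SD (bars). The Q140 libraries of Psme1 sit between 20.43 and 26.78 CPM, all above the wild type libraries, while Psmb8 and Psmb9 overlap in every group.

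In the core, 1 of 8 alpha ring genes and 1 of 7 constitutive beta ring genes rose. Psmb5, which encodes the subunit with chymotrypsin-like activity, was at 22.8, 24.4 and 25.8 CPM in wild type and at 24.4, 26.8 and 29.3 CPM in Q140. The groups overlapped, and the gene rose by 0.16 (SE 0.041, edgeR adjusted p = 0.00409). Psma7 was at 53.1, 55.4 and 58.7 CPM in wild type and at 57.4, 60.3 and 64.0 CPM in Q140, and rose by 0.12 (SE 0.037, edgeR adjusted p = 0.0155). All 7 beta ring changes were above 0, with a median of 0.08, and those of Psmb1, Psmb2, Psmb3, Psmb4, Psmb6 and Psmb7 did not pass the test. Of these Psmb4 came closest, at 0.09 (edgeR adjusted p = 0.0598). The changes of the other alpha ring genes, Psma1 to Psma6 and Psma8, lay between −0.04 (Psma3) and 0.08 (Psma5).

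In the cap, 1 of 9 base genes and 1 of 8 lid genes rose. The ATPase gene Psmc4 was at 54.6, 58.4 and 61.2 CPM in wild type and at 58.5, 63.0 and 70.6 CPM in Q140, and rose by 0.13 (SE 0.034, edgeR adjusted p = 0.00519). Psmd8 of the lid was at 61.7, 63.8 and 65.9 CPM in wild type and at 64.1, 67.5 and 71.2 CPM in Q140, and rose by 0.08 (SE 0.029, edgeR adjusted p = 0.0451). Both pairs of groups overlapped. The Psmd8 call was lost when any 1 of 10 libraries was left out (adjusted p up to 0.124). The remaining ATPase genes Psmc1, Psmc2, Psmc3, Psmc5 and Psmc6 and the scaffold and ubiquitin receptor genes Psmd1, Psmd2 and Psmd4 lay between −0.06 (Psmc2) and 0.06 (Psmc6). Of the lid genes Psmd3, Psmd6, Psmd7, Psmd11, Psmd12, Psmd13 and Psmd14, the last of which encodes the enzyme that removes ubiquitin, Psmd6 came closest to the threshold at 0.09 (edgeR adjusted p = 0.057).

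Assembly factors gave 2 rises among 7. Psmd9, a chaperone of the base, was at 17.4, 18.9 and 21.2 CPM in wild type and at 19.7, 20.7 and 24.6 CPM in Q140, and rose by 0.15 (SE 0.045, edgeR adjusted p = 0.0115). Without wild type F3 it was at 0.12 (adjusted p = 0.0533). Psmg3, a chaperone of the alpha ring, was at 3.01, 3.67 and 5.19 CPM in wild type and at 3.64, 4.49 and 5.02 CPM in Q140, and rose by 0.23 (SE 0.084, edgeR adjusted p = 0.0439). That call was lost when any 1 of 11 libraries was left out (adjusted p up to 0.138). Exons of Psmd9 share 1849 bases with Gm26745 on the other strand, and those of Psmg3 share 280 bases with Gm26938 on the same strand. The other chaperone genes Psmg1 and Psmg2 were at 0.11 and 0.14, Psmg4 at 0.00 and Psmd10 at 0.04. Psmd5, another base chaperone, stood the other way at −0.09 (SE 0.038, edgeR adjusted p = 0.105). It was at 29.9, 33.9 and 36.3 CPM in wild type and at 29.2, 31.7 and 33.9 CPM in Q140.

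**Figure D3:**
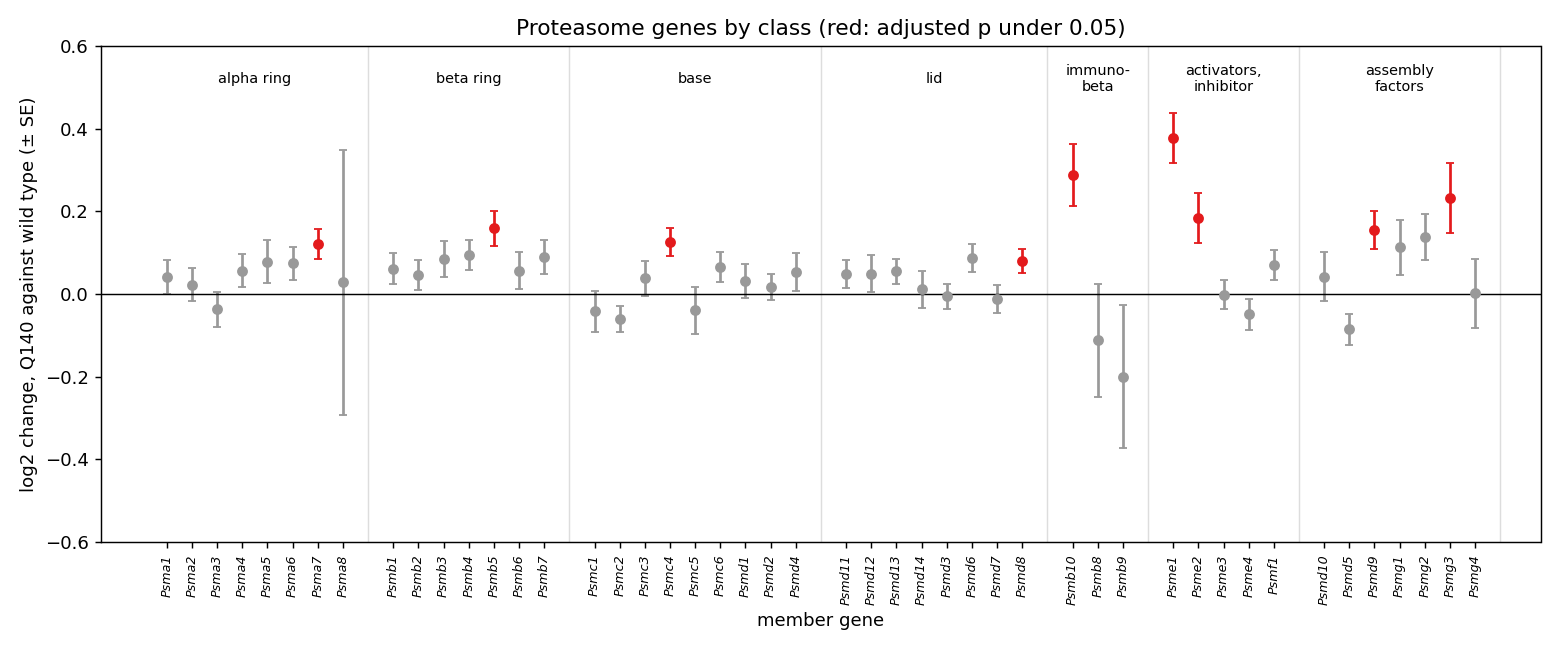
Log2 change of each of the 47 genes in Q140 against wild type with its SE (bars), by class, in red where the edgeR adjusted p was under 0.05. Psme1, Psmb10 and Psmg3 lie above 0.2, and most genes of the rings, base and lid lie between −0.06 and 0.16.

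How many proteasome genes rose in Q140 depended on how libraries were scaled. With scaling by library totals in place of TMM, 33 of the 47 rose and 0 fell. The median change of the 47 was then 0.14 and that of all genes 0.10, and the calls among all genes moved from 1926 up and 2043 down to 5076 up and 1104 down. Under this scaling Psme1 was at 0.46 and Psmb10 at 0.37. A change of scaling moves all genes by about the same amount, so their distance from the all-gene median is no separate support. With only the wild type and Q140 libraries in the fit, 5 of the 47 rose: Psme1, Psmb10, Psmb5, Psmc4 and Psma7.

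These rises came in tissue whose cell markers also moved. All 10 medium spiny neuron markers fell in Q140, with a median of −0.64, and their sum was 14110 to 16000 CPM in wild type and 7738 to 11810 CPM in Q140. In a bulk sample fewer cells of a type and less RNA per cell cannot be told apart. Of all 19975 genes tested, 2043 fell and 1926 rose in this comparison. Of 12 microglial markers 3 fell (Csf1r, C1qa and Siglech) and 0 rose. The list's sum was 451.0 to 615.4 CPM in wild type and 369.5 to 475.7 CPM in Q140. The highest wild type value was that of F3, with the next wild type library at 508.7 CPM. Of 10 endothelial markers 4 fell and 0 rose, and of 10 astrocyte markers 5 fell and 0 rose. The part of these shifts in the proteasome values was not tested. Without the 5 libraries that stood apart in a marker list, 4 of the 47 rose (Psme1, Psmb10, Psmb5 and Psmc4) and 0 fell. With wild type M1 kept and the other 4 left out, 7 rose and 1, Psmd5, fell.

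Genes that work with the proteasome were taken from a list of 33 ubiquitin and proteasome partners, 32 of which were in the table. In Q140, 5 rose and 6 fell, with a median change of −0.02, beside 19.9% of all genes called in either direction. Nfe2l1, Ubqln4, Ddi2 and Uba1 had the smallest p. Nfe2l1 encodes a transcription factor known to drive proteasome genes when the proteasome is inhibited. It was at 354.5, 364.4 and 379.9 CPM in wild type and at 294.6, 317.2 and 337.6 CPM in Q140, with no overlap, and fell by 0.20 on the log2 scale (SE 0.032, edgeR adjusted p = 3.65e-06). Ddi2, the protease that activates the Nfe2l1 protein, fell by 0.20 (SE 0.046, edgeR adjusted p = 0.000921). Ubqln4, a shuttle that carries ubiquitinated proteins, fell by 0.23 (SE 0.041, edgeR adjusted p = 4.21e-05). Uba1, the enzyme that activates ubiquitin, rose by 0.12 (SE 0.034, edgeR adjusted p = 0.00995). Other calls included rises of Uchl5, Pithd1, Vcp and Sqstm1 and falls of AI314180 and Ubqln1. Of 12 genes of antigen presentation 0 passed the test in Q140 against wild type, with a median change of 0.01. Of these, Erap1, which trims peptides for presentation, was at 0.14 (edgeR adjusted p = 0.16).

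Loss of Msh3 alone left no called proteasome gene. In Msh3+/- against wild type 0 of the 47 were called, beside 0.01% of all genes, and 2 of the 47 (4.26%, beside 4.72% of all genes) had an unadjusted p under 0.05. In Msh3-/- against wild type 0 of the 47 were called, beside 0.03% of all genes, and 0 had an unadjusted p under 0.05, beside 4.04% of all genes. DESeq2 also called 0 of the 47 in both. Psme1 was at 14.6, 17.7 and 18.18 CPM in Msh3+/- and at 14.8, 17.9 and 19.4 CPM in Msh3-/-, within or near the wild type range. Psmb10 was at 5.42, 5.83 and 6.89 CPM in Msh3+/-, a difference of −0.18 from wild type (SE 0.074, edgeR adjusted p = 0.988), and at 6.03, 6.74 and 8.29 CPM in Msh3-/-.

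The next comparisons asked whether Msh3 genotype alters these transcripts in mice with the repeat. In Q140 Msh3-/- against Q140, 4 of the 47 fell and 0 rose: Psmb10, Psme1, Psmf1 and Psmd8. This is 8.51% of the 47, beside 11.9% of all genes called in either direction and 5.04% that fell. Psme1 was at 17.0, 19.3 and 22.01 CPM in Q140 Msh3-/-, overlapping with the 20.43 to 26.8 CPM of Q140, and fell by 0.26 (SE 0.058, edgeR adjusted p = 0.00139). Psmb10 was at 5.53, 6.57 and 7.58 CPM and fell by 0.35 (SE 0.072, edgeR adjusted p = 0.000699). Its median thus lay near the wild type median of 6.64 CPM, and the range overlapped with that of Q140. Psmf1 was at 22.5, 25.5 and 27.4 CPM in Q140 and at 22.2, 23.2 and 24.6 CPM in Q140 Msh3-/-, and fell by 0.11 (SE 0.035, edgeR adjusted p = 0.026). Psmd8 was at 59.6, 63.8 and 66.0 CPM in Q140 Msh3-/- and fell by 0.09 (SE 0.028, edgeR adjusted p = 0.0295). The call of Psmf1 was lost when any 1 of 5 libraries was left out and that of Psmd8 when any 1 of 6 was (adjusted p up to 0.0868 and 0.0761). Of the 32 partners, Ubqln4 (0.17), AI314180, Nfe2l1 (0.10) and Ddi2 (0.13) rose and Sqstm1 fell in this comparison. All 10 medium spiny neuron markers rose in it, with a median of 0.42. Since Q140 libraries serve in both this comparison and that with wild type, the opposite signs are not independent of each other.

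With 1 Msh3 allele lost, in Q140 Msh3+/- against Q140, 0 of the 47 were called by edgeR, beside 1.98% of all genes. An unadjusted p under 0.05 was found for 5 of the 47, which is 10.6% beside 16.1% of all genes. Psmb10 was at 6.07, 7.29 and 7.60 CPM in Q140 Msh3+/-, −0.24 from Q140 (SE 0.071, edgeR adjusted p = 0.0641). Psme1 was at 18.25, 20.2 and 21.9 CPM, −0.19 from Q140 (SE 0.057, edgeR adjusted p = 0.0653). DESeq2 called both as falls. Both medians lay between those of wild type and Q140. Leaving out Q140 M4 gave 3 calls, and leaving out Q140 F3 or Q140 Msh3+/- F4 gave 2 each. In this comparison 7 of 10 medium spiny neuron markers rose, with a median of 0.30. Choroid plexus genes gave 6 rises among 8, with Q140 Msh3+/- F1 at 4353 CPM in sum. The part of these shifts in the proteasome values was not tested.

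The effect of the repeat was then measured on each Msh3 background, in comparisons that share no library with that of Q140 with wild type and only its estimate of the spread. In Q140 Msh3+/- against Msh3+/-, 2 of the 47 rose and 0 fell, which is 4.26% beside 6.45% of all genes called and 2.96% that rose. Psme1 rose by 0.24 (SE 0.056, edgeR adjusted p = 0.00487). Its lowest Q140 Msh3+/- library, at 18.25 CPM, lay just above the highest Msh3+/- library, at 18.18 CPM. Psmb10 rose by 0.23 (SE 0.071, edgeR adjusted p = 0.0419), with overlapping ranges. That call was lost in a fit of only the groups compared and when any 1 of 11 libraries was left out. Psme2 was at 5.49, 6.11 and 6.62 CPM in Q140 Msh3+/- and at 4.95, 5.26 and 5.85 CPM in Msh3+/-, a difference of 0.17 (SE 0.057, edgeR adjusted p = 0.0695). Psmb5 and Psmc4, which rose on the wild type background, stood at 0.01 and 0.03 here. Nfe2l1 and Ubqln4 fell, by 0.12 and 0.14 on the log2 scale. All 10 medium spiny neuron markers also fell in this comparison, with a median of −0.41, 1 of 10 astrocyte markers fell, and 7 of 8 choroid plexus genes rose, with Q140 Msh3+/- F1 at 4353 CPM in sum. The part of these shifts in the proteasome values was not tested. Psme1 and Psmb10 were still called without the 5 libraries that stood apart.

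In Q140 Msh3-/- against Msh3-/-, 0 of the 47 were called by edgeR and by DESeq2, beside 0.0751% of all genes, and 1 (2.13%, beside 6.72% of all genes) had an unadjusted p under 0.05. Psme1 differed by 0.14 (SE 0.058, edgeR adjusted p = 0.652), Psme2 by 0.11 (SE 0.059) and Psmb10 by −0.07 (SE 0.073). Of all 19975 genes, 15 were called on this background.

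**Figure D4:**
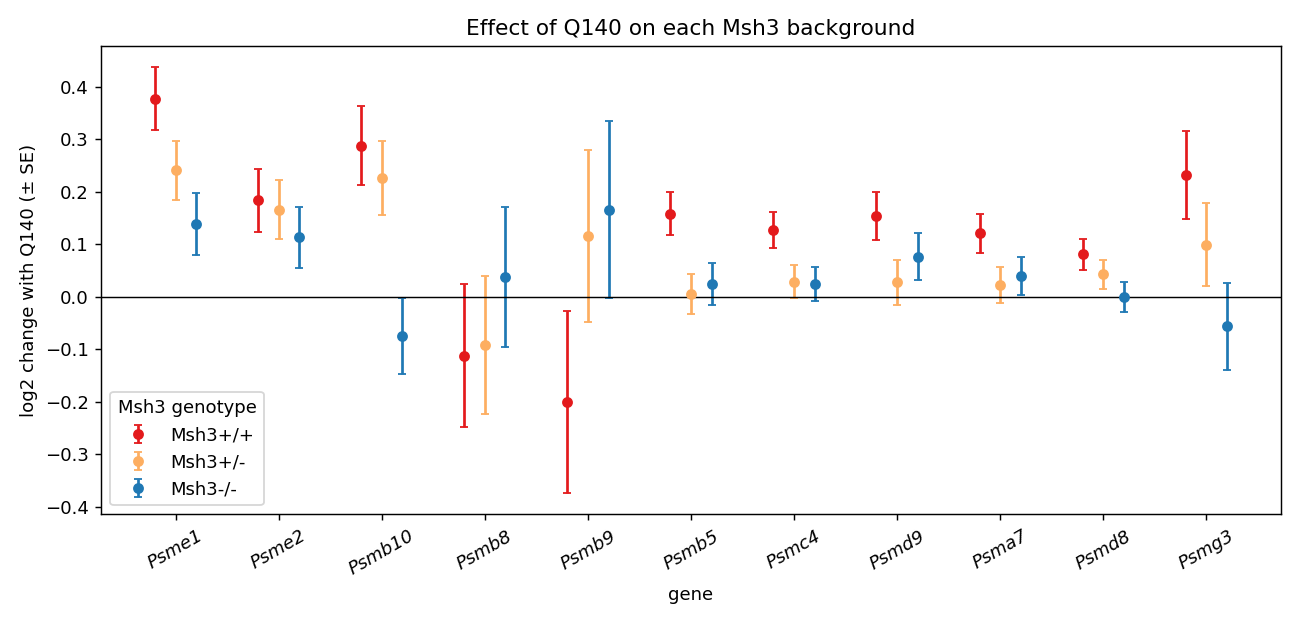
Log2 change with Q140 (points, with SE bars) on each of 3 Msh3 backgrounds for 11 proteasome genes. Psme1 is at 0.38, 0.24 and 0.14 on Msh3+/+, Msh3+/- and Msh3-/-, and Psmb10 at 0.29, 0.23 and −0.07.

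The difference between these effects was tested as an interaction. With Msh3-/-, the Q140 effect on 1 of the 47 genes differed, beside 2.39% of all genes. It was Psmb10, whose effect was lower by 0.36 on the log2 scale on the Msh3-/- background (coefficient −0.36, SE 0.104, edgeR adjusted p = 0.0478). This call was near the threshold, and it was lost when any 1 of 22 libraries was left out, and without the libraries that stood apart. For Psme1 the interaction was −0.24 (SE 0.084, edgeR adjusted p = 0.121), so its smaller effect on that background did not pass the test. With Msh3+/-, 0 of the 47 were called by edgeR and by DESeq2, and the share of all genes called by edgeR was 0%. In that test 3 of the 47 (6.38%, beside 8.12% of all genes) had an unadjusted p under 0.05, and the coefficients were −0.14 (SE 0.082) for Psme1 and −0.06 (SE 0.103) for Psmb10.

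Across all 6 genotypes, an F test called 6 of the 47 genes (12.8%), beside 19.2% of all genes. They were Psme1 (edgeR adjusted p = 1.27e-07), Psmb10 (5.26e-05), Psmd9 (0.0105), Psme2 (0.0151), Psmd8 (0.0358) and Psmb3 (0.0461). By median CPM, Psme1 was ordered Q140 (22.8), Q140 Msh3+/- (20.2), Q140 Msh3-/- (19.3), Msh3-/- (17.9), wild type (17.68) and Msh3+/- (17.66). The 3 groups without the repeat did not differ beyond their spread. The ranges of Q140 Msh3+/- and Q140 Msh3-/- overlapped, and that pair was not tested. Psmb3, a structural beta subunit, was at 17.1 CPM at the median in Q140 and Q140 Msh3+/-, 16.3 in Msh3+/-, and between 15.4 and 15.9 in the other 3 groups. No pair of groups compared here differed for Psmb3 by an adjusted p under 0.05.

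Sex was examined in the comparison of Q140 with wild type. The median change of the 47 genes was 0.11 in females, where 40 were above 0, and 0.02 in males, where 28 were above 0. The medians over all genes were 0.01 in both sexes. Changes of genes measured in the same libraries are not independent of each other. The mean log2 CPM over the 47 genes was 4.836 to 4.861 in wild type females and 4.872 to 5.015 in Q140 females, highest in F4. In males it was 4.86 to 4.903 in wild type and 4.872 to 4.915 in Q140. In the test of the difference between the sexes, 0 of the 47 were called by edgeR and by DESeq2, beside 0% of all genes. An unadjusted p under 0.05 was found for 8 of the 47, which is 17.0% beside 7.40% of all genes. The smallest adjusted p was that of Psma3, at 0.09 in females and −0.15 in males (difference 0.24, SE 0.074, edgeR adjusted p = 0.585). Psme1 was at 0.44 in females and 0.31 in males, and Psmb10 at 0.31 and 0.27. Wild type held 3 female libraries, so these values rest on few mice.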

How the data were processed

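Striatal RNA of 48 libraries was sequenced after TruSeq stranded preparation, per the labels' protocols. The authors deposited whole-number counts per gene with no scaling, and FPKM, which here equal the counts divided by gene length and library total. Per the submitters' processing notes, STAR 2.7.5c, SAMtools 1.10 and HTSeq 0.12.3 were used with GRCm38 and mm10. The strand setting is not given in the sources used here.

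Counts were fitted in edgeR 4.0.16 (R 4.3.3) over all 48 libraries: filterByExpr (minimum count 10, minimum total 15), TMM scaling (factors 0.956 to 1.09), robust quasi-likelihood fit on group means with sex, two-sided contrasts, Benjamini-Hochberg over 19975 genes, threshold 0.05. CPM use TMM-scaled library sizes. The 28820 genes not tested held 0.0383% of counts. With 33.7 to 52.8 M counts a library, depth limited precision only for weakly expressed genes. Scripts were tested on simulated data. The changes planted there were larger than most of the proteasome changes given here, so the recovery of such small changes was not tested.

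Every gene that met the name and count rule is named. Full statistics went to genes called in any comparison, and Msh3 to the label check. Of the other lists, up to 4 called genes by smallest p were given values, or up to 2 where none was called. Members and lists were chosen with earlier results of these data known. Values of Psmb8, Psmb9, Psma8, Psmd5, Psma3, Psmb4 and Psmd6 were added after seeing them. Results of the marker lists for oligodendrocytes (1 of 10 fell), choroid plexus (1 of 8 fell) and cortical neurons (1 rose and 1 fell of 8) in Q140 against wild type are given here only. A few genes of the lists are not reported here.

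Alternatives were RLE scaling, scaling by totals, DESeq2 1.42.0, no filter, 1 CPM in 24 libraries, no sex term, a replicate block, plate column, only the groups compared, limma 3.58.1 on log2 FPKM with 0.1 or 1 added, and each library left out. Chosen after seeing the data were leaving out 4 or all 5 of the libraries that stood apart, and limma-voom without and with a random block for the 27 stems that column names share (consensus correlation 0.136).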

Additional observations from a re-analysis of the deposited data

Results flagged for a closer look

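Single libraries stood far from the rest of their group in 4 of 66 sets of values examined (11 genes in 6 groups); chance alone gives about 1 in 20. In Q140 Msh3+/- the library F4 was the highest for Psma7 at 65.3 CPM (next 58.6 CPM), for Psmc4 at 69.9 CPM (next 62.8 CPM) and for Psmd9 at 21.9 CPM (next 19.9 CPM). Of all 48 libraries, Q140 F4 and Q140 Msh3+/- F4 had the highest means over the 47 genes, at 5.02 and 4.99 on the log2 CPM scale, with the next at 4.96. The names of their columns share a stem with that of Msh3+/- F5, whose meaning the labels do not give. With such stems as a random block, 8 of the 47 rose in Q140 against wild type and 4 fell in Q140 Msh3-/- against Q140. Without Q140 F4, 2 fell in the latter comparison. In wild type the library M3 was the highest for Psmb10 at 8.29 CPM, with the next at 6.74 CPM.

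The effect of Q140 on Psmb10 differed between the Msh3-/- and the wild type background, with an interaction of −0.36 on the log2 scale (edgeR adjusted p = 0.0478). Psmb10 rose by 0.29 with Q140 on the wild type background and stood at −0.07 on the Msh3-/- background. It was 1 of the 47 genes called in this interaction (2.13%), beside 2.39% of all genes. The interaction call held in 9 of 15 alternatives (edgeR or other tool, adjusted p up to 0.156). It was lost in 22 of 31 fits that left out 1 library.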

How the results depend on the processing

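Under 15 alternatives (13 for the sex difference, 14 for the test across 6 genotypes) several counts of calls moved, as given below. A count of calls cannot reverse. No gene called in a comparison of groups or in an interaction changed the sign of its effect. Calls of Psme1, Psmb5 and Psmc4 in Q140 against wild type, of Psmb10 there and in Q140 Msh3-/- against Q140, and of Psme1 in the latter and in Q140 Msh3+/- against Msh3+/-, held under all alternatives and with each library left out. Scaling by totals and limma on FPKM with either offset gave equal counts of members called: 33 in Q140 against wild type, 3 in Q140 Msh3+/- against Q140, 18 in Q140 Msh3-/- against Q140, 5 in Q140 Msh3+/- against Msh3+/-, 6 in the interaction with Msh3-/- and 27 across genotypes. With only the groups compared, these were 5 (Q140 against wild type), 2 (Q140 Msh3-/- against Q140), 1 (Q140 Msh3+/- against Msh3+/-) and 0 (interaction with Msh3-/-). The last 2 counts were also 1 and 0 with no filter and with plate column, and the interaction gave 0 without the 4 or 5 libraries that stood apart and with the column-name stem as a block (adjusted p at most 0.156 over its alternatives). Without the 5 libraries, Q140 against wild type gave 4. DESeq2 gave 2 in Q140 Msh3+/- against Q140. The causes were not tested. The split of all genes in Q140 Msh3-/- against Q140 moved from 1368 up and 1006 down to 804 up and 3463 down with scaling by totals.

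With each library left out, counts ranged from 7 to 11 in Q140 against wild type, 0 to 3 in Q140 Msh3+/- against Q140, 2 to 6 in Q140 Msh3-/- against Q140 (2 without Q140 F4 or Q140 Msh3-/- M2), 1 to 3 in Q140 Msh3+/- against Msh3+/-, 0 to 2 in the interaction with Msh3-/- and 3 to 8 across genotypes (3 without Q140 F4). The comparisons with 0 calls by every tool stayed at 0. Psma7 lost its call in Q140 against wild type with plate column as a covariate (adjusted p = 0.052) and without the 5 libraries that stood apart (0.0811). Correlations between same-numbered libraries, after group and sex, ran from −0.327 to 0.425. In Q140 Msh3+/- against Q140, 3 of 8 pairs were above 0.1, and in each other comparison of 2 groups at most 1 pair was. The main fit did not pair libraries by number. With a replicate block, 9 genes were called in Q140 against wild type (8 up and Psmd5 down) and 1 in Q140 Msh3+/- against Q140. Low counts limit Psma8, Psmb8 and Psmb9.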
